A study of Mus musculus with 2 samples.

Results

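In a pool of mouse hematopoietic stem cells profiled cell by cell, 341 of 3402 cells were set apart by a high share of transcripts from 11 immediate early genes. The 11 genes were Fos, Fosb, Jun, Junb, Egr1, Ier2, Zfp36, Dusp1, Btg2, Nr4a1 and Klf2. A droplet barcode was kept as a cell when it carried at least 500 unique molecular identifiers (UMIs, each standing for 1 captured transcript) and at most 20% mitochondrially encoded UMIs. In each library the top 10% of kept cells by the summed share of the 11 genes, ties included, were taken, and they are called high cells here. They numbered 158 of 1574 cells in aliquot 1 and 183 of 1828 in aliquot 2, which left 3061 other cells.

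The study sequenced bone marrow cells sorted for GFP alone from Mds1-GFP/+ Flt3-Cre mice, in which GFP is placed at Mds1, part of the Mecom gene. The carrier cells mixed in were stem cells of wild-type mice with long-term activity (LT-HSCs), sorted as live, lineage-negative, c-Kit+ and Sca+ cells that were CD48- and CD150+. The labels describe the GFP cassette as flanked by loxP sites, so a cell with Flt3-Cre activity would lose it. Both aliquots came from this 1 pool and were run as separate inDrops libraries, a droplet method that barcodes the RNA of single cells. The age, sex and number of the mice are not given in the sources used here, and a cell without a GFP transcript cannot be assigned to either mouse line.

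Immediate early genes are switched on within minutes of a stimulus, without new protein synthesis, when kinases such as MAP kinases and PKA activate factors that already sit on the promoters, among them serum response factor and CREB. Growth factors, cytokines, stress and the handling of tissue are known triggers. Many products are transcription factors (the FOS and JUN families that form AP-1, EGR, KLF and NR4A proteins), and others end the response by destroying messenger RNA (Zfp36) or by removing phosphate from MAP kinases (the DUSP family). In LT-HSCs, EGR1 and NR4A1 are known as genes associated with quiescence.

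The pool gives 1 biological sample, so the cell sets are compared by size alone, without p-values. Levels are in CPM, summed UMIs scaled to a total of 1000000. Each ratio sets high cells against other cells and carries an exact 95% interval for counting error only, which does not cover the spread between animals, and the ratio in each aliquot is given as a technical repeat. Outside the description of the 11 genes, those genes were left out of counts and totals. A gene counts as measured when at least 10 UMIs were expected in the high cells, and as higher or lower when its ratio was at least 1.5, or at most its inverse, with both aliquots on that side of 1.

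The limit was set by rank, and no gap in the share separated high from other cells there. Whether the high cells form a separate class was not tested. In aliquot 1 the lowest high cell had 0.836% of its UMIs from the 11 genes and the next cell below had 0.832%. In aliquot 2 these shares were 0.702% and 0.701%. Within 0.1 percentage points of the limit lay 29 high and 34 other cells in aliquot 1 and 43 and 54 in aliquot 2. The median share was 1.20% in high and 0.133% in other cells of aliquot 1, and 0.933% against 0.113% in aliquot 2.

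High cells held few UMIs of the 11 genes in absolute terms. The number per high cell ran from 5 through a median of 10 to 39 in aliquot 1 and from 4 through 17 to 57 in aliquot 2. No UMI of the 11 genes was seen in 459 other cells of aliquot 1 (32.4%) and in 422 of aliquot 2 (25.7%). A high cell showed 1 to 10 of the 11 genes with a median of 5, and 327 high cells (95.9%) showed at least 3. In 74 high cells (21.7%) a single gene gave more of these UMIs than the other 10 together.

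Jun had most UMIs of the 11 genes in 135 high cells, Fos in 67, Ier2 in 37, Zfp36 in 33, Egr1 in 29, Dusp1 in 23 and Junb in 10. Klf2 led in 4, Btg2 in 2 and Nr4a1 in 1, and Fosb in 0, with ties given to the gene named first in the list above. The make-up of the 11-gene UMIs differed between the cell sets. Fos gave 14.5% of them in high cells and 7.65% in other cells, while Jun gave 24.5% and 31.5%.

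Depth, RNA quality and free RNA were compared beside the share. High cells were shallower than other cells, with a median of 820 against 963 UMIs in aliquot 1 and 1882 against 2102 in aliquot 2. The median number of genes seen was 575 against 664 and 995 against 1085. Mitochondrial UMIs made up a median of 5.40% of a high cell and 5.25% of another cell in aliquot 1, and 5.07% against 4.77% in aliquot 2. Barcodes under 200 UMIs, which hold mostly RNA free in the suspension, had 0.204% (aliquot 1) and 0.174% (aliquot 2) of UMIs from the 11 genes, against 1.32% and 1.06% summed over high cells and 0.191% and 0.165% summed over other cells. The part of depth in the results was examined by thinning and by depth bins, given below.

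The aliquots shared 461 barcode names, a name being no proof of a shared cell. Of the kept cells, 431 carried a name present in both files, 42 of them high cells, and 6 names belonged to a high cell in each aliquot. Scrublet, a doublet caller, marked 9 cells (0.572%) and 16 cells (0.875%), of which 1 and 2 were high cells, and no cell was removed for it.

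Ppp1r15a had the second highest ratio of the measured immediate early genes outside the 11 genes. Its promoter and those of Btg2 and Dusp1, from the 11, hold a full CREB site in the 250 bases before the transcription start. They are shown with the promoter of Mcm6, a DNA replication helicase gene that was lower in the high cells and carries 2 E2F sites. The sequences are RefSeq's on GRCm38.p6, read on the minus strand, at chr1:134079156-134079405 for Btg2, chr17:26508473-26508722 for Dusp1, chr7:45526269-45526518 for Ppp1r15a and chr1:128359706-128359955 for Mcm6. Capitals mark TGACGTCA in the first 3 and TTTGGCGC in Mcm6.
Btg2: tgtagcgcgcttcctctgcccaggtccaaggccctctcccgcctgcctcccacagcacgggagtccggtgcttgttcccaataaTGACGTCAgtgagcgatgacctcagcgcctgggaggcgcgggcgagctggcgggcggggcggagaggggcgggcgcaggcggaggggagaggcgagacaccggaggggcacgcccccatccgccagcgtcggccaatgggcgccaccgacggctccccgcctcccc
Dusp1: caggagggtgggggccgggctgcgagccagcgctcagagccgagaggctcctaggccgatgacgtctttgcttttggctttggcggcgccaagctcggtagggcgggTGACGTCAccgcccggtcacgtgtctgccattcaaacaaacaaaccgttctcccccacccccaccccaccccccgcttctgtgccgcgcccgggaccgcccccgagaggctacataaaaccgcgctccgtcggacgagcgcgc
Ppp1r15a: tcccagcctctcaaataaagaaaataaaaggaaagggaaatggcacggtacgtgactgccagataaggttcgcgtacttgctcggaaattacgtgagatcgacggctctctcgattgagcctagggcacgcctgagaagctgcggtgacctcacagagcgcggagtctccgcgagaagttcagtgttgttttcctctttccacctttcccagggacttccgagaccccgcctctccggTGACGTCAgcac
Mcm6: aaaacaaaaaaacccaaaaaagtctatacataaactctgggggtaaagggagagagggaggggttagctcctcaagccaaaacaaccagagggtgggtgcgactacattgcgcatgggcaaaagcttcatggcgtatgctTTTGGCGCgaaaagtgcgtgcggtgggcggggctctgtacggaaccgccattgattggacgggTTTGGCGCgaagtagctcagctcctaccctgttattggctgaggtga

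The TGACGTCA site lay 166 to 159 bases before the start of Btg2, 143 to 136 before Dusp1 and 12 to 5 before Ppp1r15a, and the Mcm6 sites lay 110 to 103 and 47 to 40 bases before the start. On both strands and in windows of the same length, TGACGTCA was found for 2 of the 9 chosen genes that matched a RefSeq promoter, 22.2%, and for 1 of the 19 matched immediate early genes outside the rule that were higher, 5.26%. It was found in 3.13% of 5560 promoters of measured genes, in 2.35% of 341 matched genes higher and 2.79% of 610 lower in high cells, and in 1.77% of all 27025 promoters. A CArG box, the site of serum response factor, was found for 1 of the 9, Zfp36, for 0 of the 19 and for 1.62% of all promoters. The E2F octamers TTTGGCGC or TTTCGCGC were found for 3 of 17 matched S phase genes (Mcm5, Mcm6 and Uhrf1), 17.6%. Among all genes lower in high cells the share with an E2F octamer was 4.26% of 610, among higher genes 0.587% of 341, and among measured genes 1.73%. A match is a description of letters, and a window without one says nothing of a factor's binding.

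The levels of the 11 genes follow from the choice of cells and are given as a description. Fos, the AP-1 partner of JUN proteins (chromosome 12, 85473890 to 85477273, plus strand, GENCODE on GRCm38), stood at 1876 CPM in high cells and 147 in other cells of aliquot 1, and at 1550 and 126 in aliquot 2. Jun (chromosome 4, 95049034 to 95052222, minus strand) was the most abundant of the 11, at 3175 against 612 and 2611 against 516. Nr4a1, an orphan nuclear receptor (chromosome 15, 101254269 to 101274795, plus strand), was among the rarest at 188 against 17.3 and 152 against 14.4. Klf2, a Kruppel-like factor associated with lymphocyte quiescence, stood at 188 against 26.0 and 251 against 17.4. Fosb was the rarest at 93.8 against 4.66 and 64.3 against 8.68, from 35 UMIs in high cells. The order of the genes by level was similar in the 2 aliquots.

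**Figure D1:**
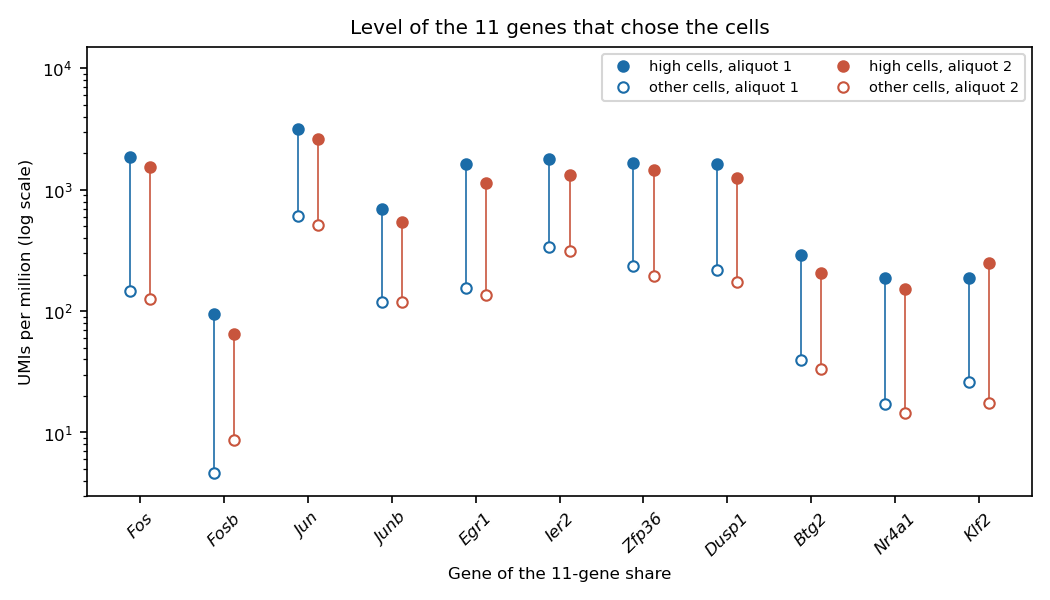
Level of each of the 11 genes that chose the cells, in CPM on a log axis, with filled points for high cells, open points for other cells and a line joining both for each aliquot. Jun is the highest and Fosb the lowest of the 11 in both cell sets, and the gap is part of the rule, not a finding.

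To read each gene without its own part in the choice, cells were chosen again by the other 10 genes and the left-out gene was compared. Each of the 11 was at least 2.84 times as high in the cells chosen by the other 10, and each was above 1 in both aliquots. Among the transcription factors, left-out Fos was 7.11 times as high (interval 6.40 to 7.90), at 1400 CPM against 191 in aliquot 1 and 1151 against 164 in aliquot 2. Left-out Egr1, a zinc finger factor, was 6.13 times as high (5.47 to 6.85), at 1378 against 177 and 869 against 161. Left-out Jun had the lowest ratio, 2.84 (2.63 to 3.06), at 2111 against 710 and 1675 against 605.

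Junb, an AP-1 member that also restrains proliferation of stem cells, gave 3.29 (2.80 to 3.84) and Ier2, a nuclear early response protein, 3.08 (2.79 to 3.40). Genes with few UMIs gave the highest ratios with wide intervals. Klf2 gave 9.002 (6.81 to 11.9) from 98 UMIs in high cells, Fosb 8.75 (5.36 to 14.2) from 33 and Nr4a1 8.11 (5.82 to 11.2) from 67. Their intervals overlap one another, so these 3 could not be ranked.

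The genes that limit the response were in the same range. Left-out Zfp36, which binds AU-rich messenger RNA and speeds its decay, gave 4.69 (4.23 to 5.19). Left-out Dusp1, a MAP kinase phosphatase, gave 4.79 (4.30 to 5.32), at 1238 CPM against 252 in aliquot 1 and 957 against 203 in aliquot 2. Left-out Btg2, an antiproliferative cofactor of messenger RNA deadenylation, gave 4.92 (3.80 to 6.33).

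Over the 11 left-out genes the median log2 ratio was 2.30, against a median of −0.02 over all 7315 measured genes. It was 2.08 when every cell was first thinned to 500 UMIs. Each UMI of a cell was also put at random, with equal chance, into 1 of 2 parts, the first used to choose cells and the second to read them. The share in the second part was 4.76 times as high in aliquot 1 and 5.07 times in aliquot 2. In the first part the contrast was 1.40% against 0.186% in aliquot 1, and in the second 1.01% against 0.213%. In aliquot 2 it was 1.08% against 0.159% and then 0.916% against 0.181%. The gap was smaller, and in the same direction, in UMIs that had not chosen the cells. Of the cells chosen on the first part, 116 of 158 in aliquot 1 and 146 of 184 in aliquot 2 were high cells by all UMIs.

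The 11 genes were also divided into the AP-1 genes with Egr1 and Ier2 (6 genes) and Zfp36, Dusp1, Btg2, Nr4a1 and Klf2 (5 genes), a division made after values were seen. Each part chose 341 cells, and 135 cells (39.6% of each set) were in both. In cells chosen by the 6 genes, Klf2 was 6.30 times as high, Nr4a1 6.06, Dusp1 4.66, Zfp36 4.28 and Btg2 3.81. In cells chosen by the 5 genes, Fos was 7.11 times as high, Fosb 7.05, Egr1 4.44, Junb 3.04, Ier2 2.78 and Jun 2.55. Each gene group was thus higher in cells chosen by the other group. Each set was the top 10% of kept cells, so unrelated choices would share near 10%, where 39.6% were shared. Most cells of one set were outside the other, and how far few UMIs per cell limit the overlap was not tested.

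Across all genes, 446 of 7315 measured genes were higher in the high cells (6.1%) and 769 were lower (10.5%). Ratios were ranked among the 4517 genes with at least 20 UMIs expected in high cells, leaving out genes seen (for high ratios) or expected (for low ratios) in under 10 high cells and genes that did not lie on the same side of 1 in both aliquots. Of the 15 highest, several were further immediate early genes, and of the 15 lowest, several were genes of DNA replication and mitosis. Granulocyte genes, which were expected in under 10 high cells and so were not ranked, had lower ratios still, such as S100a9 at 0.0158 and S100a8 at 0.0319. No gene was tested for a difference between animals.

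Of 41 immediate early genes outside the rule, 23 were measured, and 21 of these were higher and 0 lower, where 6.1% of all measured genes were higher. All 23 had a ratio above 1, and their median log2 ratio was 1.01, at 1.08 in aliquot 1 and 0.95 in aliquot 2. The list was drawn up with earlier results of these data known. Summed over the list's transcription factors, the level in high cells was 1762 CPM against 831 in aliquot 1 and 1714 against 762 in aliquot 2. Summed over its feedback and signalling genes it was 6143 against 3240 and 5316 against 2920.

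Among the transcription factors, Jund, the AP-1 subunit that is present in resting cells, had the highest ratio of the measured genes at 3.44 (3.02 to 3.90). It was seen in 173 high cells and stood at 519 CPM against 169 in aliquot 1 and 736 against 207 in aliquot 2. Klf6, a zinc finger factor of the Kruppel-like family, was 3.20 times as high (2.68 to 3.81), at 402 against 102 and 334 against 114. Nr4a2, an orphan receptor related to Nr4a1, was 2.13 times as high (1.31 to 3.31) from 24 UMIs, and Klf10, a TGF-beta inducible factor, 1.52 (1.16 to 1.95). Csrnp1, a nuclear factor named for its cysteine and serine content, was 1.92 times as high (1.27 to 2.82) at 31 UMIs. Myc, which is also an immediate early gene, was not called, with 1.08 (0.898 to 1.28), at 395 against 324 and 248 against 247.

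Among genes that dampen signalling, Ppp1r15a, a phosphatase subunit that restores translation after stress, was 3.35 times as high (2.66 to 4.19), at 256 CPM against 66.7 in aliquot 1 and 198 against 63.1 in aliquot 2. Rhob, an early-induced small GTPase, was 3.26 times as high (2.74 to 3.87), at 402 against 118 and 360 against 113. Ier5 gave 2.55 (2.02 to 3.18) and Ier3 2.51 (1.96 to 3.19), the latter with 1.73 in aliquot 1 and 2.83 in aliquot 2. The MAP kinase phosphatases Dusp6 and Dusp2 gave 2.28 (1.75 to 2.93) and 2.03 (1.68 to 2.44). The inhibitors of G protein signalling Rgs1 and Rgs2 gave 2.25 (1.90 to 2.65) and 2.10 (1.69 to 2.59).

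The rest of the called genes lay between 1.57 and 2.01. They were Tob1 (2.01), Zfp36l1 (1.94), Pim1 (1.92), Mcl1 (1.87), Btg1 (1.80), Tsc22d3 (1.79), Per1 (1.76) and Tob2 (1.57). Pim1, a cytokine-induced survival kinase, stood at 673 CPM against 337 in aliquot 1 and 600 against 319 in aliquot 2. Mcl1, an antiapoptotic BCL2 relative, stood at 534 against 311 and 579 against 299. Tob2 was 2.11 in aliquot 1 and 1.33 in aliquot 2, and below 1 at 0.958 after thinning. Zfp36l2, a relative of Zfp36 that was abundant in all cells, was above 1 at 1.28 (1.18 to 1.39) but not called.

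The remaining 18 immediate early genes were too rare to count as measured. Klf4, a Kruppel-like factor of quiescence and myeloid fate, was 5.53 times as high (3.59 to 8.36) on 36 UMIs in 25 high cells, and Dusp5 3.63 (2.16 to 5.90) on 23 UMIs. Trib1 gave 4.04 (1.74 to 8.60) on 10 UMIs and Cd69 2.97 (1.43 to 5.72) on 12. Fosl1, Nr4a3, Dusp4 and Cyr61 were at 0 UMIs in high cells with at most 8 in other cells, and Egr3 was at 0 in all cells, so nothing could be read for these 5. Atf3 and Egr2 were seen in 3 and 2 high cells. The last 7, Ptgs2, Arc, Spry1, Spry2, Sgk1, Fosl2 and Maff, had 2 to 15 UMIs in high cells.

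**Figure D2:**
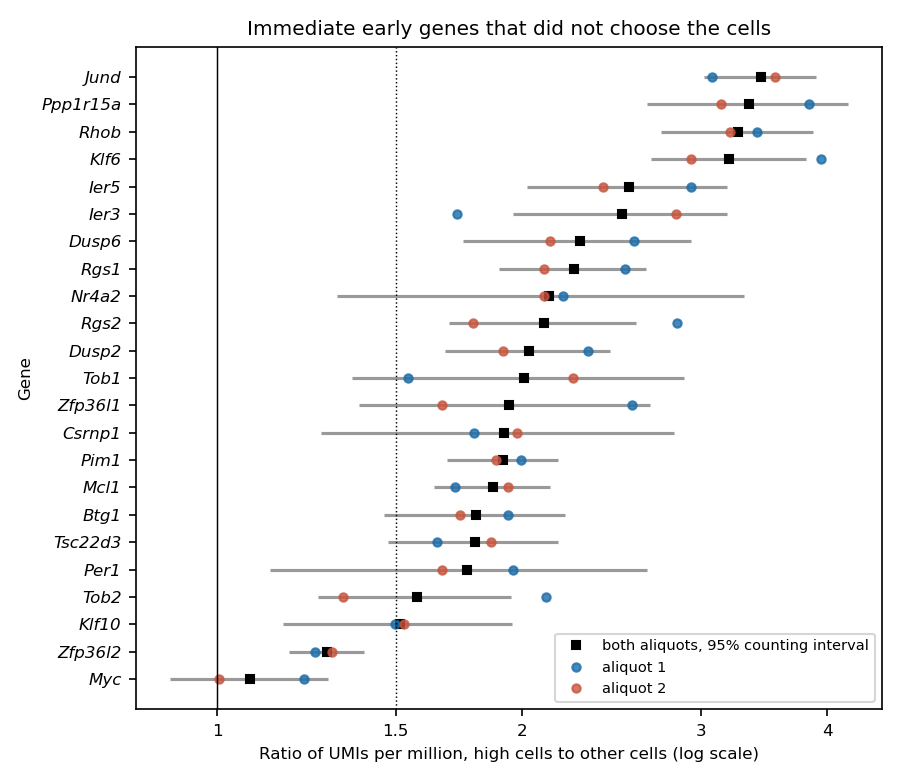
Ratio of CPM in high cells to other cells for the 23 measured immediate early genes outside the rule, on a log axis, with squares for both aliquots together, bars for the 95% counting interval and circles for each aliquot; the solid line is 1 and the dotted line 1.5. All 23 squares lie above 1, from Myc at 1.08 to Jund at 3.44.

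Besides these lists, the 15 highest of the ranked ratios held Klf9, a glucocorticoid-responsive Kruppel-like factor, at 3.31 (2.43 to 4.46), with 2.90 in aliquot 1 and 3.54 in aliquot 2. They held the linker histone gene Hist1h1c at 2.90 (2.27 to 3.68), and Cebpb, the bZIP factor of emergency granulopoiesis, at 2.61 (2.18 to 3.11) from 158 UMIs in 72 high cells. Spty2d1 (2.27), Taf7 (2.22), Kdm7a (2.22) and Gpr171 (2.22) completed the set. Taf7 is a subunit of the general transcription factor TFIID, Spty2d1 is a histone chaperone and Kdm7a a histone demethylase. Gpr171, a G protein-coupled receptor, fell below 1 at 0.947 when only cells without cell cycle UMIs were compared.

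Transcripts of the kinases and factors upstream of the immediate early response centred on equal levels. Of 18 measured genes of the MAP kinase, SRF and CREB pathway, 0 were higher and 1 was lower. Over all measured genes 6.1% were higher and 10.5% lower. The list's median log2 ratio was 0.00, at −0.25 in aliquot 1 and 0.07 in aliquot 2. The 1 lower gene was Creb1, which encodes CREB, at 0.660 (0.455 to 0.929), with 0.701 and 0.643 in the aliquots. Srf, which encodes serum response factor, stood at 0.83 (0.47 to 1.35). These are transcript levels and carry no measure of kinase activity.

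Targets of NF-kB were measured for 6 of 16 genes, with 3 higher, where 6.1% of all measured genes were, 0 lower and all 6 above 1. Nfkbia, which encodes the inhibitor that NF-kB induces, was 1.72 times as high (1.51 to 1.94), at 709 CPM against 402 in aliquot 1 and 576 against 340 in aliquot 2. Ccl4, an inflammatory chemokine, gave 2.20 (1.62 to 2.95) and Tnfaip3, another feedback inhibitor, 1.89 (1.19 to 2.91). Of the list for KLF2 and FoxO targets, 13 were measured, 4 were higher, again beside 6.1% of all measured genes, and all 13 were above 1, with a median log2 ratio of 0.51. In cells at or under the median share of cell cycle UMIs, 2 of 12 were higher, beside 5.67% of genes measured there. There 8 were above 1 and the median was 0.25. Txnip, an inhibitor of glucose uptake, was among the most abundant genes named here and was 1.56 times as high (1.46 to 1.66), at 2896 CPM against 1714 and 2086 against 1392. Arrdc4 (1.69), S1pr1 (1.79) and Pik3ip1 (1.55) were the other 3.

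Smaller lists moved in part, beside shares of 6.1% higher and 10.5% lower over all measured genes. In the cytokine feedback list Socs2 (1.76, 1.30 to 2.35) and Cish (1.54, 1.19 to 1.97), both STAT5 targets, were higher among 6 measured. Cish gave 2.23 in aliquot 1 and 1.24 in aliquot 2, and the list's median was 0.67 and 0.09. In cells at or under the median cell cycle share 0 of 6 were higher, beside 5.67% of genes measured there. In the p53 and Gadd45 list Ccng1 (1.64), Gadd45a (1.61) and Trp53inp1 (1.83) were higher among 5, but after thinning Gadd45a stood at 0.922 and the list's median log2 ratio was −0.41. Of 11 heat shock and chaperone genes, Hspa1a (1.85, 1.10 to 2.95) and Hspa1b (1.71, 1.34 to 2.15) were higher. These are near-identical stress-inducible copies that share reads. Hspd1 (0.667) was lower, 1 of 11 being near the share of all measured genes. The median of that list was 0.01, with Hspa8 at 1.03 and Hsp90ab1 at 1.01. Interferon response genes gave 0 higher and 0 lower of 10, with a median of 0.12. Smad7 was the only called gene of 4 measured TGF-beta and ID genes, at 1.79 (1.08 to 2.82), with 3.92 in aliquot 1 and 1.23 in aliquot 2.

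**Figure D3:**
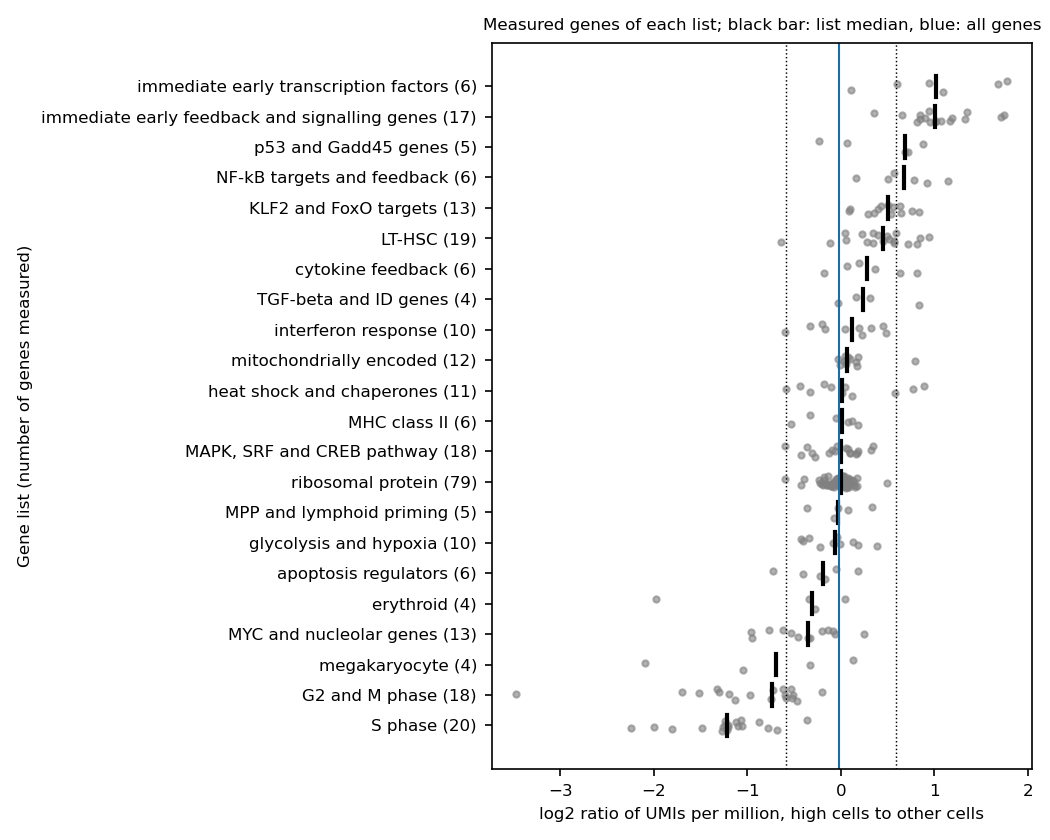
Log2 ratio of high to other cells for each measured gene (grey points) of the gene lists with at least 4 measured genes, except granulocyte genes, with the list median as a black bar, the median of all genes as a blue line and 1.5-fold limits dotted. The immediate early lists lie highest with medians of 1.01 and S phase genes lowest with −1.21, while ribosomal and MAP kinase pathway genes centre on 0.

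Genes of the cell cycle were lower. Of 20 measured S phase genes 19 were lower, where 10.5% of all measured genes were, 0 were higher and all 20 were below 1, with a median log2 ratio of −1.21, at −0.97 in aliquot 1 and −1.36 in aliquot 2. Summed over the list, high cells held 1806 CPM against 3643 in aliquot 1 and 1359 against 3231 in aliquot 2, a ratio of 0.444 (0.411 to 0.479). The groups do not overlap between aliquots: the higher of the high-cell sums lies below the lower of the other-cell sums.

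The replication helicase genes were the best counted. Mcm6 (chromosome 1, 128331590 to 128359664, minus strand), whose promoter is printed above, stood at 322 CPM against 662 in aliquot 1 and 245 against 551 in aliquot 2, a ratio of 0.458 (0.381 to 0.547). Mcm7 gave 0.422 (0.332 to 0.530), Mcm2 0.424 (0.311 to 0.566) and Mcm3 0.418 (0.302 to 0.565). Pcna, the sliding clamp, gave 0.434 (0.306 to 0.597). Among enzymes of nucleotide supply, Tyms gave 0.251 (0.0911 to 0.553), Tk1 0.268 (0.163 to 0.417) and Dut 0.477 (0.372 to 0.603). Gmnn, the licensing inhibitor geminin, gave 0.210 (0.0677 to 0.497) from 5 UMIs in high cells, and Uhrf1, a factor of maintenance methylation, 0.285 (0.158 to 0.474). Cdc45, part of the replicative helicase, was at 0 UMIs in high cells and 137 in other cells. Gins2 at 0.77 was the 1 measured S phase gene not called.

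Of 18 measured genes of G2 and M phase 13 were lower, where 10.5% of all measured genes were, and 0 were higher. All 18 were below 1, with a median log2 ratio of −0.74. The list summed to 1587 CPM against 3452 in aliquot 1 and 1953 against 2827 in aliquot 2, so the gap was wider in aliquot 1. Top2a, a topoisomerase of dividing cells, gave 0.436 (0.319 to 0.581), with 0.245 in aliquot 1 and 0.531 in aliquot 2. Mki67, the proliferation antigen, gave 0.455 (0.313 to 0.641) and Cks2 0.596 (0.448 to 0.779), the latter at 1.15 in cells at or under the median cell cycle share. Hmgb2, the most abundant of the list, was not called at 0.693 (0.620 to 0.772). Cdca8 (0.299), Pbk (0.297) and Ckap2l (0.324), mitotic genes outside the list, were among the 15 lowest of the ranked ratios.

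The other low ratios were mixed in kind. Fignl1, a factor of recombination, gave 0.231 (0.110 to 0.429). Mrps10 (0.210) and Mrpl12 (0.332) belong to the mitochondrial ribosome, Cttn (0.342) to the cortical actin network, and Nkg7 (0.264) to cytotoxic granules. Ctdspl, a small phosphatase, gave 0.341 but 1.03 after thinning. In the list of MYC and nucleolar genes, 4 of 13 were lower, beside 10.5% of all measured genes, and 12 were below 1. In cells at or under the median cell cycle share 1 of 12 was lower, beside 9.37% of genes measured there. There 8 were below 1. The 4 lower among all cells were Nop58 (0.513, 0.378 to 0.681), Srm (0.517, 0.328 to 0.778), Nop56 (0.588, 0.427 to 0.792) and Gnl3 (0.653, 0.368 to 1.08). Npm1, by far the most abundant of that list, stood at 0.943 (0.877 to 1.01).

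Cells were also grouped into bands of the share, a step added after the data were seen. The S phase level ran against the share along its whole range in both aliquots, apart from the lowest 2 bands of aliquot 2. In aliquot 1 it was 4031 CPM in cells with 0 UMIs of the 11 genes, 3735 in cells above 0 up to the 75th percentile of the share, 2556 from the 75th to the 90th, 2310 from the 90th to the 95th and 1262 above the 95th. In aliquot 2 these bands held 3414, 3436, 2123, 1620 and 1085. Immediate early genes outside the rule went the other way, from 3145 to 3994, 6184, 6901 and 8989 in aliquot 1 and from 2886 to 3561, 5331, 6435 and 7655 in aliquot 2. Cells of the 75th to 90th percentile, which are not high cells, already lay between the extremes on both lists. The G2 and M phase level in the same bands was 4315, 3311, 2205, 2197 and 928 CPM in aliquot 1. In aliquot 2 it was 3399, 2901, 1697, 2197 and 1697, so there the 75th to 90th percentile was no higher than the high cells.

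**Figure D4:**
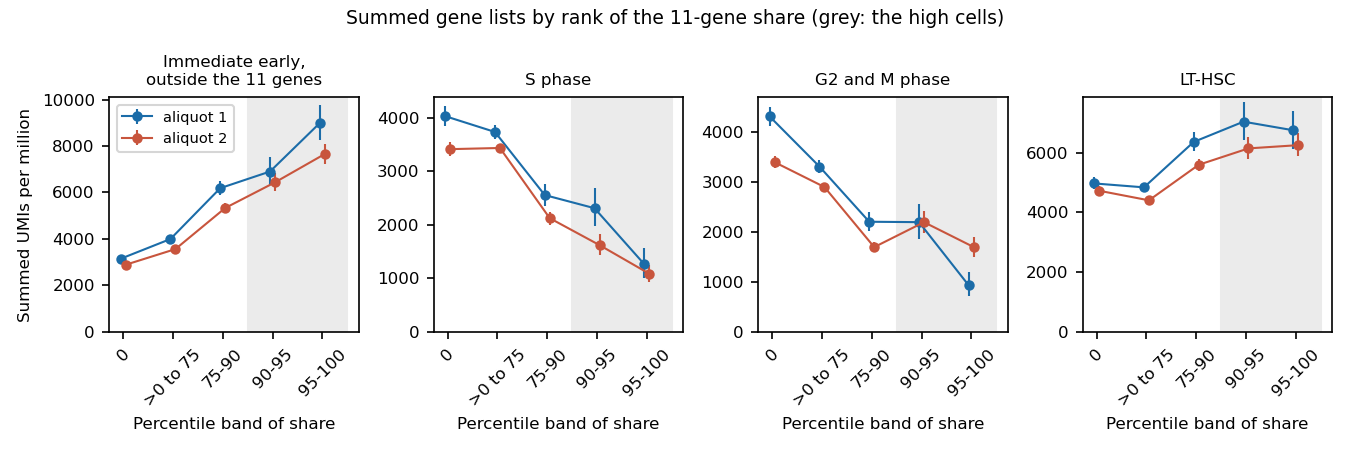
Summed CPM of 4 gene lists in 5 bands of cells ordered by percentile of the 11-gene share (0 means no UMI of the 11 genes), for each aliquot, with 95% counting intervals as bars and the high cells shaded. Immediate early genes outside the 11 rise from 3145 and 2886 to 8989 and 7655 across the bands, S phase genes end at 1262 and 1085, and the G2 and M phase level of aliquot 2 does not fall evenly.

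How far the other contrasts stood in cells with little cell cycle signal was measured directly. Of high cells, 231 (67.7%) were at or under their aliquot's median share of S, G2 and M phase UMIs, against 1471 (48.1%) of other cells. The shares were 70.3% against 47.8% in aliquot 1 and 65.6% against 48.3% in aliquot 2. Within these cells the immediate early genes outside the rule had a median log2 ratio of 0.75, with 15 of 22 measured higher and 0 lower. Of all genes measured there, 5.67% were higher and 9.37% lower. The 5 transcription factors measured there had a median of 0.40 with 2 higher, against 1.01 with 5 of 6 among all cells, and the 17 feedback and signalling genes had 0.75 with 13 higher. In cells with 0 cell cycle UMIs after thinning to 500, 141 of them high cells, the median of the immediate early genes was 0.80. Here 13 of 20 were higher, beside 6.25% of all genes measured. The S phase median was −0.34 and −0.31 in these 2 comparisons, with 8 and 6 genes measured, since the cells were chosen by those UMIs.

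The size of the S phase contrast varied with how the cells were chosen, and the cause was not tested. When the top 10% were taken within 5 depth bins of each aliquot, the median UMI numbers were 1400 and 1419 and the S phase median was −0.62, with 10 of 20 genes lower, in place of −1.21 with 19 of 20. With each cell thinned to 500 UMIs it was −0.97, with 12 of 15 lower. Over all genes measured, 8.51% were lower in the depth bins and 10.1% after thinning. The immediate early median outside the rule was 0.87 in the depth bins and 0.92 after thinning. In the top 5% of cells the S phase median was −1.63, and in the top 20% it was −0.88.

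**Figure D5:**
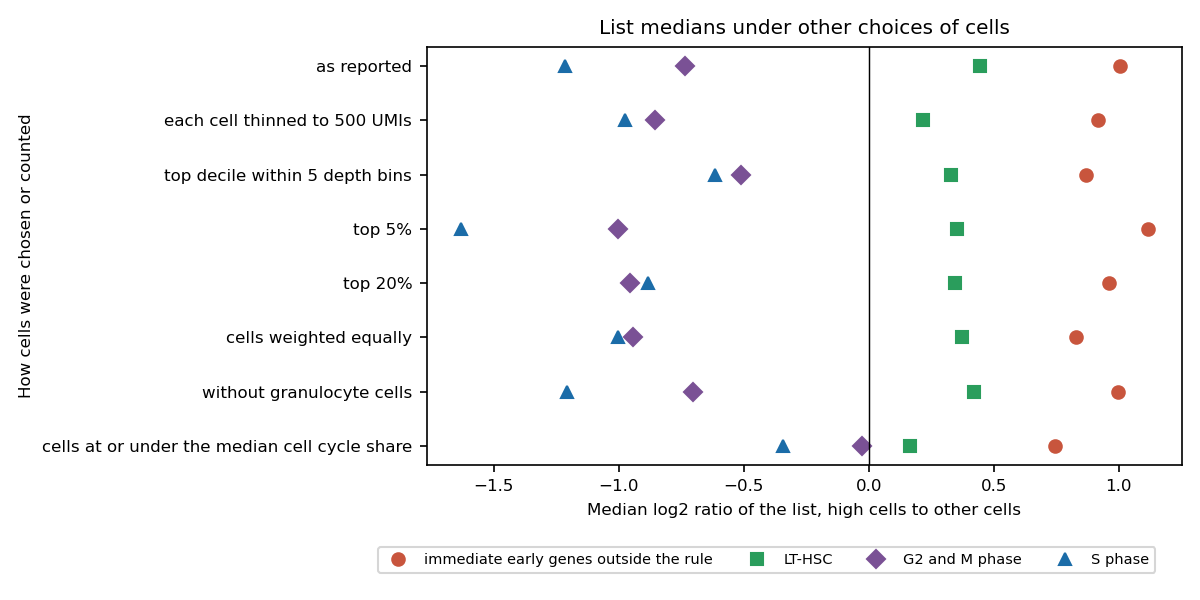
Median log2 ratio of high to other cells for 4 gene lists (symbols) when the high cells are chosen or counted in 8 ways (rows). Immediate early genes outside the rule stay between 0.75 and 1.12 in all 8, whereas the S phase median runs from −1.63 in the top 5% to −0.34 in cells with little cell cycle signal.

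The high cells carried transcripts of LT-HSCs, the cell type of the labelled sorts. Hlf, a bZIP factor of stem cells, stood at 1082 CPM in high cells and 823 in other cells of aliquot 1 and at 981 against 660 in aliquot 2, a ratio of 1.43 (1.30 to 1.57). Procr, the LT-HSC surface marker EPCR, gave 1.48 (1.19 to 1.83). Slamf1, which encodes the sorted antigen CD150, was not among the measured genes.

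Of 19 measured LT-HSC genes, 4 were higher, 1 was lower and 17 were above 1, with a median log2 ratio of 0.45, where 6.1% of all measured genes were higher and 10.5% lower. The 4 were Sult1a1 (1.92, 1.47 to 2.47), Gimap6 (1.79, 1.47 to 2.16), Mllt3 (1.76, 1.46 to 2.11) and Fgd5 (1.65, 0.945 to 2.72), of which Mllt3 is a known regulator of stem cell maintenance. Gfi1 was lower at 0.641, on 8 UMIs with an interval of 0.271 to 1.30. Summed, the list stood at 6903 CPM against 5119 in aliquot 1 and 6199 against 4657 in aliquot 2. The lead was smaller in other comparisons: the median was 0.22 after thinning and 0.10 in cells with 0 cell cycle UMIs. In cells at or under the median cell cycle share it was 0.17 with 0 of 19 higher, beside 5.67% of genes measured there. Multipotent progenitor genes did not differ by the size set here, with 0 of 5 called, Cd34 at 1.05 (0.874 to 1.25) and Plac8 at 0.777 (0.641 to 0.934).

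Markers of other cell types were checked in the same way. Granulocyte genes summed to 0.140 times the level (0.119 to 0.164), from 154 UMIs in high and 11987 in other cells. Of 9 measured genes 8 were lower, where 10.5% of all measured genes were, and 1 was above 1. Cd177 and Ctsg were at 0 in high cells. The 28 cells with at least 10 granulocyte UMIs, 15 in aliquot 1 and 13 in aliquot 2, included 0 high cells. High cells were the top 10% of kept cells, so few would be looked for among 28. Without these 28 cells the immediate early median outside the rule was 1.00 and the S phase median −1.21, so both were as large without them. Megakaryocyte genes summed to 0.522 times the level (0.424 to 0.635), with Pf4 at 0.234 (0.127 to 0.395) and Itga2b at 0.485 (0.331 to 0.687), the latter at 1.01 in cells at or under the median cell cycle share. The other 2 measured genes were not called, Gp9 at 0.793 (0.401 to 1.42) and Vwf at 1.09 (0.719 to 1.60), with Vwf at 1.63 in aliquot 1 and 0.910 in aliquot 2. Erythroid genes summed to 0.778 times the level (0.717 to 0.842). Car2, at 0.788 (0.723 to 0.856), held 592 of the list's 647 UMIs in high cells. Of 4 measured genes 1 was lower, where 10.5% of all measured genes were. It was Gata1 at 0.255 (0.0818 to 0.604), on 5 UMIs. Hbb-bt gave 1.03, with 2.03 in aliquot 1 and 0.473 in aliquot 2. Aqp1 gave 0.828, with 0 UMIs in high cells of aliquot 1 and 1.21 in aliquot 2. Car1, Hba-a1 and Hba-a2, not measured, were at 0 in high cells.

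Lymphoid and vascular markers were near 0. The B cell list held 25 UMIs in high cells with Cd79a, Ms4a1 and Igll1 among those at 0, although Cd79b, the 1 measured gene, gave 2.31 (1.37 to 3.73) on 21 UMIs. The T and NK cell list held 13 UMIs with Cd3e, Cd3g, Klrd1 and Gzma at 0, and the endothelial and stromal list 11 with Cdh5, Cxcl12 and Col3a1 at 0. Prss34, a basophil protease, gave 2.81 (2.28 to 3.44), but its 120 UMIs came from 5 high cells and 79 of them from 1. Without the cell that held most Prss34 UMIs, an other cell with 207, the ratio was 5.05, and in cells chosen by the 5 genes alone it was 0.0376, so the value rests on single cells.

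General features of the RNA moved little, where 6.1% of all measured genes were higher and 10.5% lower. Of 79 measured ribosomal protein genes 0 were higher and 1 was lower, with a median log2 ratio of 0.00. Mitochondrially encoded genes summed to 1.07 times the level (1.05 to 1.08), with mt-Atp6 at 1.13 and mt-Co2 at 1.04. Of 12 measured, 10 were above 1 and 1 was higher, mt-Atp8 at 1.73 (1.06 to 2.70) on 23 UMIs. Bcl2, an antiapoptotic gene, was lower at 0.603 (0.457 to 0.783), the 1 called gene of 6 apoptosis regulators. With cells limited to at most 10% mitochondrial UMIs, 446 genes were higher and 765 lower, the immediate early median outside the rule was 0.96 and the S phase median was −1.21.

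Reporter transcripts were seen in 12 of 341 high cells, 3.52% (exact interval 1.83 to 6.07%), and in 59 of 3061 other cells, 1.93% (1.47 to 2.48%). In aliquot 1 the numbers were 5 of 158 and 18 of 1416, and in aliquot 2 they were 7 of 183 and 41 of 1645. The intervals overlap. After thinning to 500 UMIs, 7 high cells (2.05%, 0.829 to 4.18%) and 25 other cells (0.817%, 0.529 to 1.20%) had a reporter UMI, and these intervals overlap too, with the share higher in high cells in both aliquots (1.27% against 0.847% and 2.73% against 0.790%). None of the 28 granulocyte cells had one, which allows a share of up to 10.7%, at a median of 2517.5 UMIs against 1196 in high cells and 1437 in other cells. The difference between the shares was not tested, since cells of 1 pool are not replicates. Without the reporter cells the immediate early median outside the rule was 0.98.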

How the data were processed

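The deposited files hold raw UMI counts for 28206 features per droplet barcode, which the authors had not normalised. Per the submitters' processing notes, Bowtie 1.1.1, RSEM 1.3.0 and SAMtools 1.3.1 were used with GRCm38, with no roles or settings named. Reads of near-identical copies may have been divided between them, so values of paralogs are uncertain, and the strand setting was not found in the labels. The 3402 kept cells held 5668067 UMIs, 1640734 in aliquot 1 and 4027333 in aliquot 2, with the GFP feature left out of totals. The aliquots are 1 pool and are no biological replicates.

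Counts were summed over high and other cells, scaled to CPM and compared as ratios with exact conditional binomial intervals at 95%; for shares of cells the intervals are Clopper-Pearson, and a count of 0 was bounded by 3 counts. The code was tested on counts simulated with counting error alone, the error the intervals assume, for this comparison of 7315 genes. Intervals held the true ratio for 95.9% of 7115 unchanged genes. The 1.5-fold limit was passed by 92% of 50 genes raised 2-fold and 84% of 50 lowered to 0.5. Of unchanged genes, 2.02% passed it on the high side, without the condition on both aliquots. Real UMIs of a gene can gather in few cells, so these values check the code and are no error rate of the calls. Genes were named by rule: the 11 genes, every gene of the immediate early lists, up to 4 genes with most UMIs of each other list, and the 15 genes at either end of the ratio among 4517 that were expected to have 20 UMIs in high cells, 5 per aliquot, and to be seen in 10 high cells. Further genes of the lists were chosen after their values were seen. The members and the lists were chosen with earlier results of these data known. The sensitivity to 21 alternatives, 4 of them added after seeing the data, is given at the end.

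Neat1, Malat1 and Kcnq1ot1 were not analysed here. Gene positions are from GENCODE vM21 and promoters from RefSeq. Scrublet was run per aliquot in scanpy 1.11.5 (expected rate 6%), tables were handled in pandas 2.3.3 and numpy 2.4.6 under Python 3.11.15, intervals came from scipy 1.17.1 and plots from matplotlib 3.10.9.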

Additional observations from a re-analysis of the deposited data

How the results depend on the processing

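In the 21 alternatives, immediate early genes outside the rule had no gene lower and S phase genes none higher. Depth limits rare genes most. The immediate early median (log2, 1.01) was 0.87 in depth bins, 1.12 in the top 5%, 0.83 with cells weighted equally, 0.75 in cells at or under the median cell cycle share, 0.84 in cells chosen by the 6 genes and 0.80 in cells with 0 cell cycle UMIs. The S phase median (−1.21) was −0.62 in depth bins, −1.63 in the top 5%, −0.88 in the top 20%, −0.93 with a mean log score, −0.34 at or under the median cell cycle share and −0.31 with 0 cell cycle UMIs. The G2 and M phase median (−0.74) was −0.51 in depth bins, −1.003 in the top 5%, −0.96 in the top 20%, −0.54 with the log score, −0.94 with cells weighted equally, −0.93 without Scrublet-marked cells, −0.0289 at or under the median cell cycle share, −0.95 in cells chosen by the 5 genes and 0.0306, from 3 genes, with 0 cell cycle UMIs. The LT-HSC median (0.45) was 0.39 with at least 1000 UMIs, 0.22 after thinning, 0.33 in depth bins, 0.35 in the top 5%, 0.34 in the top 20%, 0.25 with the log score, 0.40 with at least 20 UMIs expected, 0.37 with cells weighted equally, 0.17 at or under the median cell cycle share, 0.20 in cells chosen by the 5 genes, 0.10 with 0 cell cycle UMIs and 0.37 without cells whose barcode name is in both files. The left-out median (2.30) was 2.08 after thinning. When all 11 genes chose cells on 1 part of the UMIs, with none left out, their median in the other part was 2.46.

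Higher and lower genes numbered 446 and 769. They were 246 and 434 after thinning, of which 82 and 165 were shared, 727 and 1181 with at least 5 UMIs expected, 193 and 394 with at least 20, and 247 and 403 with 0 cell cycle UMIs, where fewer genes were tested in all but the second. Leaving out aliquot 2 gave 201 higher and 414 lower of 2840 measured genes, of which 60 and 154 were shared with the main calls. Leaving out aliquot 1 gave 505 and 775 of 6048, of which 235 and 431 were shared. With 1 aliquot left out the medians were 0.94 to 1.14 (immediate early), −1.35 to −0.98 (S phase) and −1.22 to −0.61 (G2 and M phase). They were 0.40 to 0.45 for LT-HSC genes and 2.25 to 2.42 for left-out genes.

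Signs turned for the p53 and Gadd45 list (−0.41) and for Gadd45a (0.922), Tob2 (0.958) and Ctdspl (1.03) after thinning; for the granulocyte list (0.52, 1 gene) without granulocyte cells; and for the megakaryocyte list (0.0167), Cks2 (1.15) and Itga2b (1.01) at or under the median cell cycle share. They turned for the basophil and mast cell list (−4.73) and Prss34 (0.0376) in cells chosen by the 5 genes. With 0 cell cycle UMIs they turned for the megakaryocyte (0.41), granulocyte (0.34) and basophil lists (−3.78), Prss34 (0.0728), Gpr171 (0.947), Gadd45a (0.760), Itga2b (1.16) and Dut (1.03). The cause of these changes was not tested. No paired analysis was possible because both aliquots belong to 1 group.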
